A study of Rattus norvegicus with 24 samples.

Results

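The comparison set out here is between the injured cord of rats killed on day 3 and of rats killed on day 1. Its members were the arrays titled as injured with those 2 days, 4 arrays each, 1 rat to an array, or 8 of the 24 arrays of the series, and all 14217 genes that the arrays measured by a probe set with 1 gene symbol. Every injured rat was a female Wistar rat that had a laminectomy of T6 to T8 and then extradural compression of the cord at T7 with a modified aneurysm clip of 35 g for 1 min. RNA came from a short stretch of cord centred on the injury, so that it held neurons, glia, vessels, meninges, blood and cells that had entered the wound. Sham rats (n = 4) had the laminectomy and no clip, and the day of their sampling was not given in the sources used here. No transgene or experimental drug was named. By the study's methods, the animals were operated on under halothane and received an antibiotic (amoxicillin with clavulanic acid), pain relief and saline afterwards. Rats of different days were different animals, the next time point was 1 week (n = 4), and 2 weeks and 8 weeks enter only through the shared estimate of the spread.

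Compression of the cord kills neurons and glia at the site and opens the vessels. In the accepted course of such an injury, immediate-early genes, cytokines, chemokines and neutrophils come first, and proliferation, monocyte-derived macrophages and activated microglia that clear myelin debris come in the following days, before fibroblasts lay down the collagen of the scar. Surviving neurons and astrocytes meanwhile change their own programmes, with acute-phase, chaperone and growth-associated genes among the best known.

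Values are log2 expression levels. A difference of 1 on this scale is a doubling, and background was a level of about 2 to 3. The mean of the probe sets that detect no target was 2.72 to 2.87 on the day 1 arrays. It was 2.62 to 2.78 on the day 3 arrays. Differences are day 3 minus day 1 throughout, with the standard error (SE) and the p-value of limma's moderated test adjusted by the Benjamini-Hochberg method over all 20826 probe sets with 1 gene symbol. A gene is said to have risen or fallen where the adjusted p was under 0.05. The level of 1 gene cannot be set against that of another, since each probe set has its own brightness.

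The arrays of both days were alike in their medians, 4.34 to 4.40 on day 1 and 4.29 to 4.38 on day 3, and in the 3′ minus 5′ difference of the GAPDH control probe sets, -0.004 to 0.09 and 0.03 to 0.09, where a large difference is a sign of degraded RNA. The same difference for the actin control probe sets was 0.89 to 1.05 on day 1 and 1.10 to 1.21 on day 3, without overlap, against 1.29 to 1.62 in sham cord. By the study's methods each time point was pre-processed on its own, so that pre-processing and day cannot be told apart. For part of the genes, the direction of the differences ran against the accepted course given above. As wholes, the cytokine, chemokine and neutrophil lists had median differences of -0.06, -0.05 and -0.05, beside -0.05 over all genes. The arrays labelled day 1 had the higher levels of mitotic, macrophage, lysosomal and collagen genes, and the arrays labelled day 3 had the higher levels of *Il6*, *Il1r2*, *Cxcl1*, *Cxcl2*, *Socs3* and of most neuronal genes. The labels were kept as given, every direction below rests on them, and their correctness was not tested. The 4 day 1 arrays were also not alike in neural content. The mean level of the 20 pan-neuronal genes was 7.44 to 9.24 over the day 1 arrays and 10.81 to 11.32 over the day 3 arrays, and day 1 replicates 1 and 4 were the lowest. List counts of 3 or more that moved by over 1.5 times without this pair of arrays are given without them too.

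Between day 1 and day 3, 5035 of 14217 genes differed (35.4%). Of these, 2437 rose (17.1%) and 2598 fell (18.3%), and the median difference over all genes was -0.05. The counts of every list below are to be read beside these shares. A difference of at least 1 in size was found for 950 genes that rose (6.68%) and 1140 that fell (8.02%). The 4 values of one day lay wholly above those of the other for 4445 genes (31.3%), among them 893 of the 950 and 1052 of the 1140. With day 1 replicates 1 and 4 left out together, 1622 genes rose and 1523 fell.

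The genes that rose by at least 1 were on average those that stood low on day 1. Their median level was 9.06 in sham cord, 6.72 on day 1, 8.83 on day 3 and 7.47 at 1 week. The genes that fell by at least 1 ran the other way, with a median level of 6.27 in sham cord, 8.71 on day 1, 6.58 on day 3 and 8.29 at 1 week. In both groups of genes the day 3 level was thus the nearest to sham cord among these 3 injured groups, and the 1 week level lay between day 1 and day 3. These medians describe genes that were chosen by the difference itself.

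**Figure D1:**
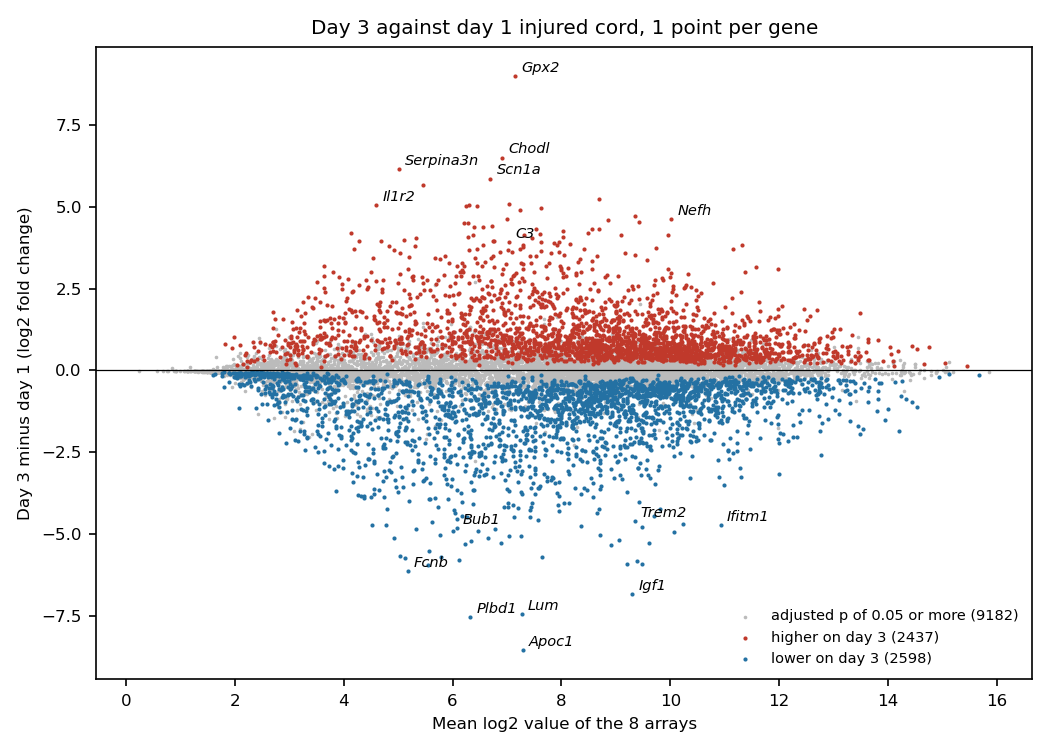
Difference between day 3 and day 1 (y axis, log2 fold change) against the mean log2 value of the 8 arrays (x axis), 1 point per gene. Red points rose (2437 genes), blue points fell (2598) and grey points had an adjusted p of 0.05 or more (9182). The largest rise was that of *Gpx2* and the largest fall that of *Apoc1*.

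The 10 largest rises held neuronal, acute-phase and redox genes. *Gpx2*, a glutathione peroxidase that detoxifies hydroperoxides, read 2.96, 2.66, 2.49 and 2.45 on the 4 day 1 arrays and 12.01, 10.97, 11.61 and 11.99 on the 4 day 3 arrays, and it rose by 9.0 (SE 0.49, adjusted p = 3.3e-10). All day 1 values lay near the background and all day 3 values far above it, and the sham mean was 2.41 ± 0.05 (SD, n = 4). *Chodl*, a membrane lectin known from fast motor neurons, rose by 6.50 (SE 1.07, adjusted p = 0.00014). *Serpina3n*, a secreted protease inhibitor of the acute phase and of reactive astrocytes, read 1.93, 1.88, 2.02 and 1.92 and then 8.74, 7.63, 6.90 and 9.07, a background level on every day 1 array and a clear signal on every day 3 array. It rose by 6.15 (SE 0.28, adjusted p = 3.2e-11). *Lynx1*, a modulator of nicotinic receptors, rose by 5.66 (SE 0.76, adjusted p = 1.7e-05), and *Itih3*, a hyaluronan-binding heavy chain of the inter-alpha-trypsin inhibitors, rose by 5.23 (SE 1.03, adjusted p = 0.00066). The *Itih3* values of day 1 were split, 3.20, 8.81, 8.94 and 3.36, with the pair of low values on replicates 1 and 4, against 11.60, 11.30, 11.40 and 10.93 on day 3. *Scn1a*, *Scn4b* and *Kcnc1*, which encode channels of fast-spiking neurons, and *Il1r2* are given with their groups. *Aak1*, a kinase of endocytosis, rose by 5.02 (SE 0.75, adjusted p = 5.1e-05), but this held for 1 of its 7 probe sets only.

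The 10 largest falls held genes of macrophages and of connective tissue. *Apoc1*, an apolipoprotein that lipid-laden macrophages make, read 11.42, 11.24, 11.79 and 11.82 on day 1 and 2.29, 4.40, 3.07 and 2.28 on day 3, and it fell by 8.56 (SE 0.69, adjusted p = 5.6e-08). Every day 1 value was at least 6 units above every day 3 value. *Plbd1*, a lysosomal phospholipase-like protein of myeloid cells, fell by 7.55 (SE 0.57, adjusted p = 2.8e-08). *Fcnb*, a lectin of the complement system, fell by 6.15 (SE 0.51, adjusted p = 8.1e-08). *Asgr2*, a galactose-binding receptor subunit, *Fcrl2*, an Fc receptor-like protein, and *Tmem37*, a membrane protein, fell by 5.94 (SE 0.62), 5.91 (SE 0.76) and 5.78 (SE 0.67). The others were *Igf1*, *Lum*, *Dcn* and *Col3a1*, which are given with their groups below.

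Genes that neurons use for their cytoskeleton and transmission stood higher on day 3. Of 20 measured pan-neuronal and axonal cytoskeleton genes, 20 rose and none fell, with a median difference of 2.37 beside -0.05 over all genes. *Nefh*, the heavy neurofilament subunit, read 7.92, 8.63, 9.12 and 5.11 on day 1 and 12.78, 12.35, 11.70 and 12.49 on day 3. The lowest day 3 array was above the highest day 1 array, and the day 1 arrays themselves were spread over 4 units. It rose by 4.63 (SE 0.93, adjusted p = 0.00081), and its sham mean was 13.54 ± 0.44 (SD, n = 4). The light chain *Nefl* and the RNA-binding protein *Elavl2* rose by 3.84 (SE 0.81) and 4.54 (SE 0.84), and *Stmn2*, a tubulin-binding protein of growth cones, by 2.27 (SE 0.53). The smallest rise of the group was 1.16 and the largest 4.63. In bulk tissue fewer cells of a type and less RNA per cell cannot be told apart, here and for every other group of cells. With day 1 replicates 1 and 4 left out, 11 of the 20 genes passed and the median difference was 1.91. *Snap25*, *Stmn2* and *Slc17a6* then no longer passed (adjusted p = 0.059, 0.060 and 0.079).

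The machinery of transmitter release moved in the same direction. Of 25 measured genes of synaptic vesicles and release, 18 rose and 1 fell, with a median difference of 1.64. Of the 18, *Sv2c* lay near background on both days (means 2.14 and 2.40). *Snap25*, a core protein of vesicle fusion, read 9.71, 11.75, 11.53 and 8.73 and then 13.71, 13.51, 13.31 and 13.54, and it rose by 3.09 (SE 0.66, adjusted p = 0.0013). Day 1 replicates 1 and 4 were the lowest again, and all day 3 values were above all day 1 values. *Cplx1*, which clamps the fusion complex, rose by 4.12 (SE 0.82), and *Syt1*, the calcium sensor of release, by 0.70 (SE 0.21, adjusted p = 0.012). The calcium sensor did not pass when only the 8 arrays were fitted (adjusted p = 0.11). The 1 gene that fell was *Syngr1*, a vesicle membrane protein, which fell by 2.31 (SE 0.53, adjusted p = 0.0022); it was singled out after its values were seen.

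Inhibitory and excitatory neurons were both represented. Among 19 measured genes of GABA and glycine transmission 12 rose and none fell, with a median difference of 1.90. *Pvalb*, a calcium buffer of fast-spiking interneurons and large sensory neurons, read 3.79, 5.51, 5.40 and 4.04 and then 10.08, 9.16, 8.61 and 9.41, groups that were more than 3 units apart, and it rose by 4.63 (SE 0.99, adjusted p = 0.0014). *Slc12a5*, the chloride extruder on which inhibition depends, rose by 4.18 (SE 0.82, adjusted p = 0.00065). *Gad1*, which makes GABA, had values of 8.38, 8.98, 8.72 and 7.63 and 10.66, 10.61, 10.51 and 10.05, which do not overlap, but did not pass (2.03, SE 0.87, adjusted p = 0.081) in the fit of all groups. It passed when only the 8 arrays were fitted (adjusted p = 0.0034). The glycine transporter *Slc6a5* was at background on all 8 arrays. Among 24 glutamate receptor and transporter genes 9 rose and none fell, beside 17.1% and 18.3% of all genes. Their median difference was 0.45, and 4 rose without day 1 replicates 1 and 4. *Slc17a6*, the vesicular glutamate transporter of cord neurons, read 6.49, 8.36, 8.00 and 5.31 and then 11.26, 11.55, 11.09 and 10.74, and rose by 4.12 (SE 0.97, adjusted p = 0.0027). The receptor subunits *Grin2a* and *Gria2* rose by 2.38 (SE 0.47) and 1.55 (SE 0.38), *Grin2a* in 1 of its 3 probe sets.

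Ion channels of action potentials rose as well. Of 27 measured voltage-gated channel genes, 14 rose and 1 fell (3 without day 1 replicate 2), with a median difference of 1.11. The 1 that fell, *Cacna1c*, lay near background on both days (means 3.05 and 2.95). *Scn1a*, the sodium channel of fast-spiking neurons, read 2.83, 3.74, 5.79 and 2.69 on day 1 and 10.18, 9.49, 9.13 and 9.68 on day 3, with 11.38 ± 0.14 (mean, SD, n = 4) in sham cord. The day 1 values were close to background on replicates 1 and 4, and it rose by 5.86 (SE 1.12, adjusted p = 0.00050). Its auxiliary subunit *Scn4b* rose by 5.07 (SE 0.66) and the potassium channel *Kcnc1* by 5.04 (SE 0.85). The 12 motor neuron and cholinergic genes gave 3 rises, of *Chodl*, of the choline transporter *Slc5a7* (2.88, SE 0.73) and of the intermediate filament *Prph* (2.64, SE 0.88, adjusted p = 0.027). *Chat*, the defining enzyme of these cells, was near background on 7 of the 8 arrays, with 3.72 on day 3 replicate 1. The median difference of the 12 genes was -0.03, and 17.1% of all genes rose. Without day 1 replicates 1 and 4, 1 of the 12 genes passed. The call of *Prph* was also lost without day 1 replicate 4 (2.18, adjusted p = 0.093) and without day 3 replicate 1, 2 or 4 (adjusted p = 0.055 to 0.058).

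**Figure D2:**
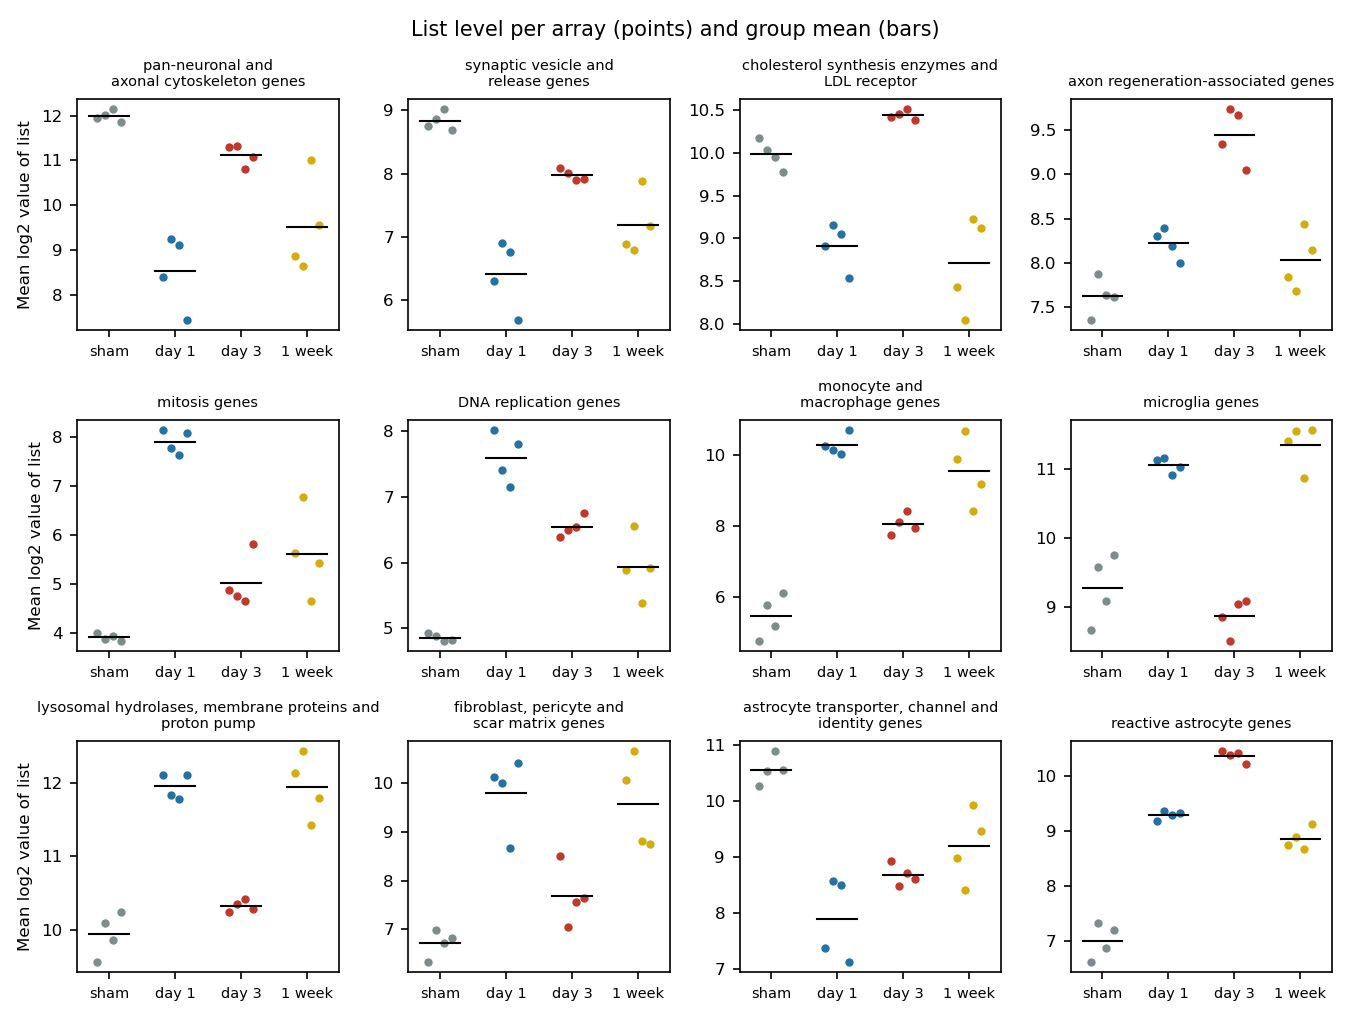
Mean log2 value of the members of 12 gene lists (y axis) in sham, day 1, day 3 and 1 week cord (x axis), 1 point per array and a bar at the mean of 4 rats. The pan-neuronal list lies at 7.44 to 9.24 on day 1 and at 10.81 to 11.32 on day 3, and the mitosis list at 7.64 to 8.14 and at 4.65 to 5.82.

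Cell division genes had the lowest median difference of the 45 lists counted. Of 40 measured mitosis genes, 39 fell and none rose, with a median difference of -2.82, and the exception was *Aurkb*, which did not pass (-1.38, SE 0.52, adjusted p = 0.051). It passed when only the 8 arrays were fitted (adjusted p = 0.0091) and without day 3 replicate 4 (-1.53, adjusted p = 0.045). *Bub1*, a kinase of the spindle checkpoint, read 8.63, 8.29, 8.14 and 8.91 on day 1 and 3.51, 3.98, 3.49 and 3.66 on day 3, against 2.87 ± 0.03 (SD, n = 4) in sham cord, and it fell by 4.83 (SE 0.52, adjusted p = 1.4e-06). *Mki67*, which coats mitotic chromosomes and marks cycling cells, read 11.56, 11.66, 11.55 and 12.08 and then 8.63, 9.12, 8.75 and 9.86, and it fell by 2.62 (SE 0.44, adjusted p = 0.00016). In both genes every day 3 value was below every day 1 value, while the day 3 values of *Mki67* remained above the sham mean of 4.98 ± 0.23 (SD, n = 4). The largest fall was that of *Ect2*, which directs the cleavage furrow (5.03, SE 0.52), followed by *Bub1* and by the cyclin *Ccnb2* (4.37, SE 0.48). *Birc5*, a passenger protein of the chromosomes, fell by 4.28 (SE 0.54), with day 3 replicate 4 at 6.07 and the other day 3 arrays at 3.05 to 3.23. The kinase *Cdk1* and the topoisomerase *Top2a* fell by 2.40 (SE 0.40) and 2.33 (SE 0.51).

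DNA replication genes fell as well. Of 27 measured, 17 fell and none rose, and the median difference was -0.85. The thymidine kinase *Tk1* and the helicase subunit *Mcm3* fell by 3.24 (SE 0.44) and 2.50 (SE 0.40). *Pcna*, the sliding clamp, read 12.78, 12.66, 12.51 and 12.66 on day 1 and 12.40, 12.58, 12.47 and 12.43 on day 3, values that overlap, and did not pass (-0.19, SE 0.10, adjusted p = 0.14). Without day 1 replicates 1 and 4, 8 of the 27 passed, and *Mcm2* (-1.26, adjusted p = 0.042) lost its call without day 1 replicate 1 or 4 and without any 1 of the day 3 arrays (adjusted p = 0.059 to 0.13).

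The promoters of the mitosis genes shared letters that the choice of genes had not used. Of the 14217 genes, 10918 were matched by gene ID to a RefSeq promoter of the GRCr8 assembly, and the 250 bases before the start were searched on both strands. The cell cycle homology region (TTTGAA) was found in 17 of 33 mitosis promoters (51.5%), beside 10.9% of all promoters, and the CCAAT box (CCAAT) in 27 of 33 (81.8%), beside 35.1%. Among all genes that fell by at least 1 these shares were 14.3% and 35.5%, and among those that rose by at least 1 they were 10.2% and 33.6%. In the cholesterol synthesis genes given below, of which 16 of 18 rose, the shares were 13.3% and 86.7% (2 and 13 of 15 promoters). The CCAAT box was thus not particular to genes that fell. A match of letters is a description and not a site of binding. Overlap with another motif of those searched was found for 5.97% of the TTTGAA matches and 0.353% of the CCAAT matches. The 3 mitosis genes of largest fall that held both motifs in the last 150 bases are shown, with both motifs in capitals on either strand. *Ccnb2* is at chr8:79981659-79981808 on the minus strand. *Pttg1*, which restrains the separation of sister chromatids, is at chr10:28406327-28406476 on the minus strand. *Prc1*, which bundles the spindle midzone, is at chr1:143659331-143659480 on the plus strand.
Ccnb2: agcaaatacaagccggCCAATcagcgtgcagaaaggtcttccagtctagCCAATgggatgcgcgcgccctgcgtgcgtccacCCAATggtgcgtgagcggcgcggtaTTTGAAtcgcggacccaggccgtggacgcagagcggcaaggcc
Pttg1: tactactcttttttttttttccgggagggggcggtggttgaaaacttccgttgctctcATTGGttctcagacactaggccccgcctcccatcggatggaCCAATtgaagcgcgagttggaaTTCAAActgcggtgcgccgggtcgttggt
Prc1: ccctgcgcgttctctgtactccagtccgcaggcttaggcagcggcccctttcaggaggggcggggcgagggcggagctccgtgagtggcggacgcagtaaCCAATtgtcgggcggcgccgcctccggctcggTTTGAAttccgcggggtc
In all of them a CCAAT box lies upstream of the TTTGAA letters, which begin 43, 29 and 18 bases before the start. The lengths between them differ, and *Ccnb2* holds 3 CCAAT boxes.

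Genes of monocytes and macrophages were lower on day 3. Of 23 measured, 14 fell and none rose, with a median difference of -1.84. *Cd68*, a glycoprotein of macrophage lysosomes, read 12.39, 11.61, 11.52 and 12.22 on day 1 and 6.87, 7.46, 8.21 and 7.38 on day 3. The groups lay more than 3 units apart, the sham mean was 2.94 ± 1.65 (SD, n = 4), and it fell by 4.46 (SE 0.64, adjusted p = 3.2e-05). *Adgre1*, an adhesion receptor of macrophages, fell by 5.20 (SE 0.48, adjusted p = 2.3e-07). *Folr2* and *Mrc1*, receptors of tissue macrophages, fell by 5.34 (SE 0.62) and 2.92 (SE 0.58). *Apobec1*, an RNA-editing enzyme of macrophages and gut, fell by 5.17 (SE 0.56, adjusted p = 1.4e-06). *Cd163*, the haemoglobin scavenger, was low on all 8 arrays (2.53 to 5.21), and did not pass (-0.65, SE 0.38, adjusted p = 0.17).

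Microglia genes fell in the same arrays. Of 17 measured, 14 fell and none rose, with a median difference of -2.10, and with day 1 replicates 1 and 4 left out 14 fell as well. *P2ry12*, the nucleotide receptor that defines resting microglia, read 10.77, 11.48, 10.93 and 11.06 and then 8.11, 7.18, 7.74 and 8.37, and it fell by 3.21 (SE 0.28, adjusted p = 1.2e-07). *Trem2*, the lipid receptor of activated microglia, read 11.94, 11.43, 11.36 and 11.87 and then 7.02, 6.72, 7.10 and 7.31, beside a sham mean of 7.55 ± 0.54 (SD, n = 4), and it fell by 4.61 (SE 0.36, adjusted p = 3.8e-08). In neither gene do the groups overlap. *Gpr34*, a receptor of lysophosphatidylserine, fell by 4.04 (SE 0.23, adjusted p = 7.4e-10). *Aif1* and *Cx3cr1*, the latter the receptor of fractalkine, fell by 2.42 (SE 0.29) and 2.39 (SE 0.34). *Cst3*, a protease inhibitor that many cells secrete, did not pass (0.02, SE 0.10, adjusted p = 0.89).

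Lysosomal genes were almost all lower on day 3. Of 28 measured, 26 fell and 1 rose, with a median difference of -1.43. *Acp5*, an acid phosphatase of osteoclasts and macrophages, fell by 5.07 (SE 0.58, adjusted p = 3.3e-06), and the glycosidase *Gusb* fell by 3.58 (SE 0.34, adjusted p = 4.2e-07). *Ctsd*, an aspartic protease, read 14.47, 14.25, 14.17 and 14.36 on day 1 and 12.39, 12.42, 12.96 and 12.64 on day 3, a narrow spread with no overlap, and it fell by 1.71 (SE 0.17, adjusted p = 8.0e-07). *Ctsk*, a collagen-cleaving protease, fell by 3.30 (SE 0.45), and the membrane protein *Lamp1* by 0.45 (SE 0.12). Genes with which phagocytes take up, store and export lipid fell too, 13 of 15 with a median difference of -2.05. Among them the cholesterol exporter *Abca1* read 12.67, 11.58, 12.45 and 13.45 and then 7.56, 6.70, 8.05 and 8.12, and it fell by 4.93 (SE 0.43, adjusted p = 1.2e-07). *Fabp4*, a fatty acid carrier, and *Lpl*, which splits triglycerides, fell by 4.71 (SE 0.68) and 3.45 (SE 0.66). *Apoe*, singled out after its values were seen, read 14.73, 14.68, 14.62 and 14.77 and then 13.05, 13.11, 13.39 and 13.15, and fell by 1.52 (SE 0.09, adjusted p = 1.7e-09). Some genes stand on several lists, such as *Cd68* and *Trem2*, so the counts are not independent.

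The motif of lysosomal gene promoters known as the CLEAR element (TCACGTGA) was found in 4 of 22 promoters of this list (18.2%), beside 1.34% of all promoters and 1.14% of those of all genes that fell by at least 1. The same letters were in 3 of 24 promoters of the DNA replication list (12.5%). Overlap with another motif was found for 1.92% of the matches of TCACGTGA. The 2 lysosomal genes of largest fall that held it in the last 150 bases are shown, with the motif in capitals. *Ctsd* is at chr1:206968822-206968971 on the minus strand, and *Cln3*, a membrane protein lost in a childhood storage disease (0.99 lower, SE 0.25), at chr1:190597930-190598079 on the minus strand.
Ctsd: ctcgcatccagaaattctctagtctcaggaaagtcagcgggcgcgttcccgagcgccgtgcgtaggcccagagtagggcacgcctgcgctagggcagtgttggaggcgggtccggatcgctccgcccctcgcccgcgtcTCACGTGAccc
Cln3: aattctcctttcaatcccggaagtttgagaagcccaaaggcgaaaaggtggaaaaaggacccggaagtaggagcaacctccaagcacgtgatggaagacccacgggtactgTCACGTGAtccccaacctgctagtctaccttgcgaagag
The letters begin 11 and 39 bases before the start.

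Genes of antigen presentation, of the interferon response and of complement fell more often than they rose. Of 12 measured genes of MHC class II presentation 6 fell (3 without day 1 replicates 1 and 4) and none rose. The median difference was -1.27. Of these falls, *Cd40* and *Ciita* lay near background on both days (means 2.65 and 1.51, 2.55 and 2.43). The others were *Cd86*, the protease *Ctss*, *RT1-DMa* and *RT1-DMb*. *RT1-Ba*, *RT1-Bb*, *RT1-Da* and *RT1-Db1* did not pass (-1.44, -1.43, -1.32 and -1.87, adjusted p = 0.086, 0.093, 0.10 and 0.10). *Cd86*, a co-stimulator of T cells, fell by 2.30 (SE 0.35, adjusted p = 7.2e-05), and *Cd74*, the invariant chain, did not pass (-1.22, SE 0.51, adjusted p = 0.074) although its groups do not overlap. Of 27 interferon-stimulated and MHC class I loading genes 10 fell and 1 rose, with a median difference of -0.52. Without day 1 replicate 4, 6 fell, and without replicates 1 and 4, 5. *Ifitm1*, a membrane protein that restricts viruses, read 13.46, 13.21, 13 and 13.51 and then 8.73, 8.32, 8.73 and 8.44, and it fell by 4.74 (SE 0.39, adjusted p = 6.2e-08). The immunoproteasome subunit *Psmb8* fell by 3.60 (SE 0.48, adjusted p = 1.8e-05). The 1 that rose was *Ifit3*, an antiviral RNA-binding complex protein, from 4.64, 4.61, 4.65 and 4.69 to 6.89, 8.81, 8.34 and 6.51. Its groups do not overlap, and it rose by 2.99 (SE 0.75, adjusted p = 0.0043). The transcription factor *Irf7* did not pass (-0.07, SE 0.58, adjusted p = 0.93), and *Cxcl10* was near background on 7 of the 8 arrays.

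Of 17 measured complement genes 9 fell and 2 rose, beside 18.3% and 17.1% of all genes, with a median difference of -0.83. *C1qa*, a chain of the first component, read 13.30, 13, 12.88 and 12.96 and then 11.14, 10.84, 11.23 and 11.17, and it fell by 1.94 (SE 0.22, adjusted p = 2.9e-06). The receptor *C3ar1* and the protease *Cfd* fell by 2.72 (SE 0.38) and 3.77 (SE 0.84). *C3*, the central component, moved the other way. It read 4.10, 6.84, 3.85 and 5.51 on day 1 and 8.52, 8.78, 9.40 and 9.29 on day 3, and all day 3 values were above all day 1 values but below the sham mean of 11.03 ± 0.47 (SD, n = 4). It rose by 3.92 (SE 0.63, adjusted p = 0.00011). Without day 1 replicates 1 and 4, 4 complement genes fell and 1 rose, and *Cfd* did not pass (adjusted p = 0.066).

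**Figure D3:**
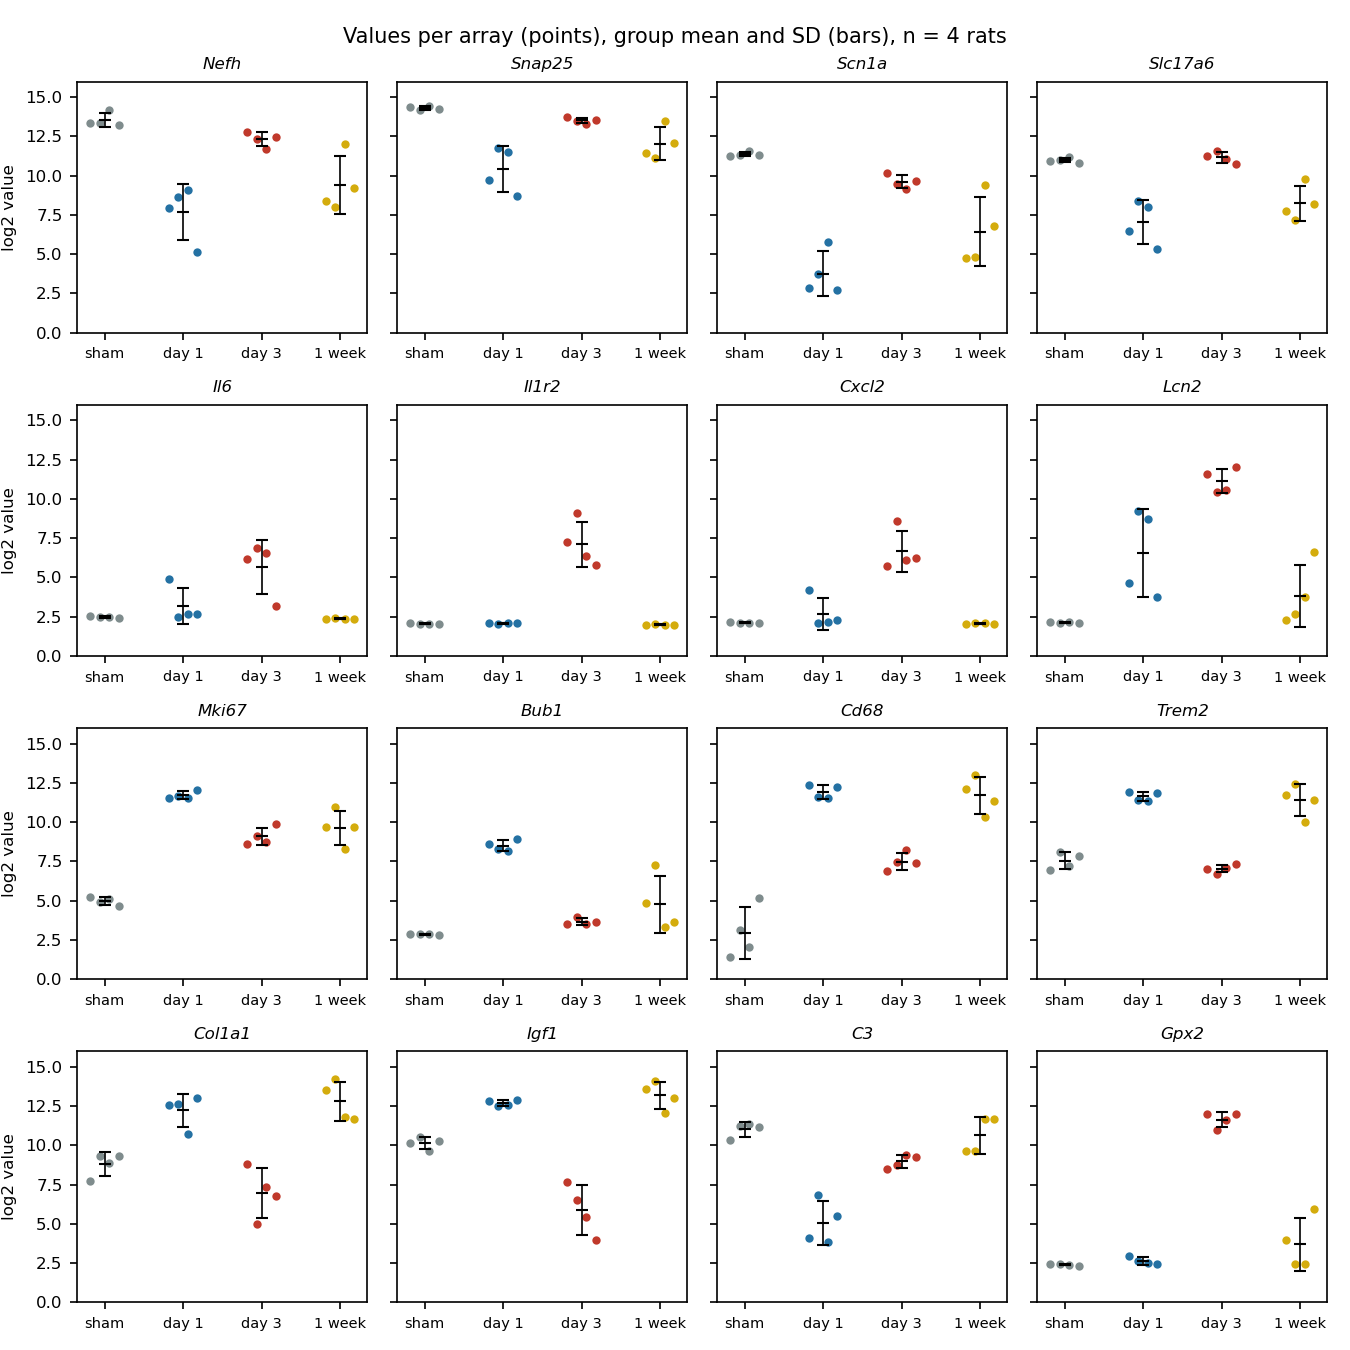
Log2 values (y axis) of 16 genes on each array of sham, day 1, day 3 and 1 week cord (x axis), with the mean and SD of 4 rats. Levels can be compared within a gene and not between genes. *Cd68* lies at 11.52 to 12.39 on day 1 and 6.87 to 8.21 on day 3, and *Gpx2* at 2.45 to 2.96 and 10.97 to 12.01.

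Among the cytokine genes, *Il1r2*, *Il6*, *Il11* and *Il1b* were higher on the arrays labelled day 3, and *Il18*, *Il6r*, *Il1r1*, *Osm* and *Il33* were lower. The 5 lower genes differed by -1.81, -1.37, -1.22, -0.82 and -0.70 (adjusted p = 0.00012, 0.0017, 0.049, 0.024 and 0.015). Of 27 measured interleukins, IL-6 family members and receptors, 10 rose and 5 fell, beside 17.1% and 18.3% of all genes, and the median difference was -0.06. Of the rises, *Il1rn* lay near background on both days (means 2.07 and 2.37). Of the falls, *Osm* was low on both days (means 3.56 and 2.75). The list count was not stable. Rises were 4 and falls 3 when only the 8 arrays were fitted, and falls were 3 without day 1 replicate 1 or day 3 replicate 3, 8 without day 1 replicate 2, and 2 without day 1 replicate 4 or without both day 1 replicates 1 and 4. *Il1r2*, a decoy receptor that traps IL-1, read 2.11, 2.02, 2.09 and 2.08 on day 1 and 7.24, 9.07, 6.36 and 5.80 on day 3, background on the first day and a signal on all arrays of the other, and it rose by 5.05 (SE 0.40, adjusted p = 4.5e-08). *Il6*, the cytokine that starts the acute phase, read 4.87, 2.47, 2.69 and 2.67 and then 6.14, 6.85, 6.55 and 3.16. Day 1 replicate 1 was above day 3 replicate 4, so the groups overlap, and it rose by 2.50 (SE 0.57, adjusted p = 0.0023). *Socs3*, a brake on IL-6 signalling, read 7.16, 7.06, 6.01 and 6.09 and then 7.71, 9.58, 9.53 and 7.67, and rose by 2.04 (SE 0.38, adjusted p = 0.00044). *Il11* and *Il1b* rose by 2.01 (SE 0.42) and 1.30 (SE 0.45) with overlapping groups. When only the 8 arrays were fitted, *Il6*, *Il11* and *Il1b* did not pass (adjusted p = 0.10, 0.079 and 0.24), and *Il1b* also failed without day 3 replicate 2 (0.59, adjusted p = 0.062) and without day 1 replicate 2 or 3 (1.26 and 1.17, adjusted p = 0.050 and 0.082). *Lif* was at background throughout.

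Of 30 measured chemokines and receptors 5 rose and 3 fell, with a median difference of -0.05, which is no more than the 17.1% and 18.3% of all genes. Without day 1 replicate 2, 7 fell. *Cxcl2*, which draws neutrophils, read 4.23, 2.09, 2.14 and 2.31 and then 5.76, 8.58, 6.09 and 6.21, and it rose by 3.97 (SE 0.46, adjusted p = 3.8e-06). Day 1 replicate 1 was the only day 1 array well above background. *Cxcl1*, a close relative, rose by 2.44 (SE 0.69, adjusted p = 0.010). *Ccl2*, the main monocyte attractant, stood high on both days, at 13.87, 12.26, 12.42 and 13.22 and 13.39, 14.53, 14.41 and 13.50, and did not pass (1.02, SE 0.50, adjusted p = 0.11). Among those that fell were the receptor *Cxcr4* (2.98, SE 0.48) and its ligand *Cxcl12* (2.94, SE 0.94). The fall of *Cxcl12* was in 1 of its 3 probe sets, day 3 replicate 1 stood at 9.43 and the other day 3 arrays at 4.34 to 4.54, and the call was lost without day 1 replicate 4 (-2.61, adjusted p = 0.068), without day 3 replicate 2, 3 or 4 (adjusted p = 0.058 to 0.077), and in the fit of the 8 arrays (adjusted p = 0.15).

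Of 16 measured neutrophil genes, 4 rose and 3 fell, beside 17.1% and 18.3% of all genes, with a median difference of -0.05. *S100a8* and *S100a9*, the subunits of calprotectin, rose by 2.22 (SE 0.28) and 1.63 (SE 0.55, adjusted p = 0.029), the second not without day 1 replicate 3 (1.31, adjusted p = 0.098) or day 3 replicate 2 or 3 (adjusted p = 0.067 and 0.087). *Lcn2*, a siderophore-binding protein of neutrophils and reactive astrocytes, read 4.61, 9.23, 8.72 and 3.72 and then 11.56, 10.45, 10.58 and 12.02, with day 1 replicates 1 and 4 far below the other 2. It rose by 4.58 (SE 1.03, adjusted p = 0.0019), and with that pair left out the difference was 2.18 (adjusted p = 0.088). *Mmp9*, a gelatinase of neutrophil granules, was at background on all 8 arrays. *Fcnb* fell as given above, and *Hp*, haptoglobin, which binds free haemoglobin, fell by 2.26 (SE 0.39, adjusted p = 0.00019).

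Early response genes rose only in part. Of 29 measured, 8 rose and none fell, beside 17.1% and 18.3% of all genes, and the median difference was 0.16. Of the 8, *Arc* lay near background on both days (means 2.38 and 2.69). Rises were 5 without day 3 replicate 2 or 3, and without day 1 replicate 3 there were 3 falls beside 6 rises. *Dusp5*, a phosphatase of ERK, read 6.96, 4.57, 5.94 and 5.22 and then 8.52, 9.12, 9.29 and 7.67, and rose by 2.98 (SE 0.36, adjusted p = 5.0e-06). *Csrnp1* and *Fosl1*, transcription factors, rose by 2.89 (SE 0.32) and 2.50 (SE 0.25). *Fos* itself read 11.50, 11.37, 11.30 and 11.82 and 12.41, 12.33, 12.34 and 12.27, groups that do not overlap, and rose by 0.84 (SE 0.30, adjusted p = 0.036). Its call was lost without day 1 replicate 1, 2 or 3 and without day 3 replicate 1, 2 or 3 (0.77 to 0.85, adjusted p = 0.057 to 0.082). *Egr1* and *Atf3* overlapped, at 0.37 (SE 0.41, adjusted p = 0.46) and 0.14 (SE 0.42, adjusted p = 0.79). The AP-1 letters TGANTCA were in 0 of 19 promoters of this list, beside 4.87% of all.

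Chaperones of the heat shock response stood higher on day 3. Of 17 measured, 8 rose and none fell, with a median difference of 0.47. *Hspa1a*, the inducible HSP70, read 10.49, 9.37, 10.17 and 10.13 and then 11.75, 13.12, 12.77 and 11.35, and rose by 2.21 (SE 0.53, adjusted p = 0.0031). *Hspa4l* and *Hspb8* rose by 2.16 (SE 0.58) and 1.27 (SE 0.34), neither of which passed without day 1 replicates 1 and 4 (adjusted p = 0.17 and 0.065), and *Hsph1*, the exchange factor of HSP70, by 1.08 (SE 0.24). *Hspb1*, a small chaperone of glia and neurons, did not pass (0.22, SE 0.26, adjusted p = 0.49). The letters GAANNTTC, the core of the heat shock element, were in 8 of 14 promoters (57.1%), beside 4.97% of all, and 8.01% of its matches overlapped another motif searched. The 2 genes of largest rise with it in the last 150 bases are shown with the motif in capitals, *Hspb8* at chr12:45837158-45837307 on the plus strand and *Hsph1* at chr12:10427218-10427367 on the plus strand.
Hspb8: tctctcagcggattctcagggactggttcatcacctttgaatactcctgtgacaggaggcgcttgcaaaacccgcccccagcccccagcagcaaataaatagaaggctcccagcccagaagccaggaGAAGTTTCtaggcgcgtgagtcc
Hsph1: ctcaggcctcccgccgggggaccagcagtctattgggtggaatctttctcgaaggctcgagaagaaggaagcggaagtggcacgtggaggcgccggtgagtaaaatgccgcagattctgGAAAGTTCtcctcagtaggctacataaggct
The letters begin 23 and 31 bases before the start.

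Genes of the unfolded protein and integrated stress response went both ways. Of 23 measured, 7 rose and 5 fell, beside 17.1% and 18.3% of all genes, with a median difference of 0.06. The rises included *Atf4*, the transcription factor of the integrated stress response, which read 10.63, 10.67, 10.52 and 10.73 and then 12.20, 12.51, 12.39 and 11.82, and rose by 1.60 (SE 0.14, adjusted p = 1.5e-07). Of the genes that this factor is known to drive, *Chac1*, which degrades glutathione, rose by 2.09 (SE 0.34). *Ddit3*, a factor of stress-induced death, rose by 1.61 (SE 0.28). So did *Asns*, *Slc7a11* and *Sesn2*, by 1.73, 1.46 and 1.15 (adjusted p = 3.8e-06, 0.00055 and 0.00053). *Trib3*, *Psat1* and *Phgdh* did not pass (0.75, 0.08 and 0.22, adjusted p = 0.055, 0.86 and 0.61). *Dnajb9*, a co-chaperone of the endoplasmic reticulum, rose by 0.52 (adjusted p = 0.0026). The falls were those of the endoplasmic reticulum proteins *Sdf2l1*, *Pdia4*, *Pdia6*, *Calr* and *Hsp90b1*, between -1.12 and -0.29, named here after their values were seen, and *Hspa5*, the chaperone of that compartment, did not pass (0.28, SE 0.14, adjusted p = 0.12). The call of *Hsp90b1* was lost without day 1 replicate 3 or 4 and without day 3 replicate 1 or 2 (adjusted p = 0.050 to 0.088), and *Calr* and *Hsp90b1* are the 2 smallest of the 5. Among 19 antioxidant genes 5 rose and 4 fell, beside the same shares of all genes, with a median difference of -0.07. *Srxn1*, which restores peroxiredoxins, rose by 1.84 (SE 0.26, adjusted p = 3.2e-05), and *Hmox1*, which degrades haem, did not pass (-0.95, SE 0.58, adjusted p = 0.18). Of 12 iron and haem genes 2 rose and 4 fell, beside the same shares of all genes, with a median difference of -0.59. The iron exporter *Slc40a1* fell by 3.05 (SE 0.64) in 1 of its 3 probe sets.

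Enzymes of cholesterol synthesis rose on day 3. Of 18 measured, 16 rose and none fell, with a median difference of 1.45, and the mean level of the list was 8.54 to 9.15 on day 1 and 10.38 to 10.50 on day 3. *Mvd*, which makes isopentenyl pyrophosphate, read 6.26, 5.18, 4.74 and 5.0 and then 7.57, 6.96, 7.76 and 7.53, and it rose by 2.16 (SE 0.32, adjusted p = 4.9e-05). *Tm7sf2*, a sterol reductase, read 5.02, 5.88, 6.03 and 4.59 and then 9.22, 9.04, 8.60 and 9.55, and rose by 3.72 (SE 0.48, adjusted p = 1.2e-05). Both genes were higher on every day 3 array than on any day 1 array. *Fdft1* and *Sqle*, the first enzymes committed to sterols, rose by 2.30 (SE 0.54) and 1.73 (SE 0.38). Without day 1 replicates 1 and 4, 14 of the 18 passed, with a median of 1.14. Neurons, astrocytes and oligodendrocytes all make cholesterol, and the part of the neural genes given above in this rise was not tested. Of 23 glycolysis and hypoxia genes 10 rose (5 without day 1 replicates 1 and 4) and 4 fell, beside 17.1% and 18.3% of all genes. Their median difference was 0.07. *Slc2a3*, the neuronal glucose transporter, rose by 2.38 (SE 0.20, adjusted p = 1.0e-07), and the hexokinase *Hk2* fell by 2.14 (SE 0.43, adjusted p = 0.00083). The 26 respiratory chain subunits gave 3 rises and 2 falls, all under 0.5 in size, with 7 rises without day 1 replicate 1 and 1 without day 1 replicate 3 or 4.

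Matrix genes of fibroblasts and pericytes were lower on day 3. Of 32 measured, 18 fell and none rose, with a median difference of -1.76. *Col1a1*, a chain of fibrillar collagen, read 12.59, 12.65, 10.71 and 12.99 on day 1 and 8.80, 4.99, 7.35 and 6.76 on day 3, with a sham mean of 8.82 ± 0.75 (SD, n = 4). Day 1 replicate 3 was the lowest of its group and day 3 replicate 1 the highest of its own, and the groups do not overlap. It fell by 5.26 (SE 0.75, adjusted p = 3.1e-05). *Col3a1* fell by 5.82 (SE 1.08, adjusted p = 0.00040), with day 3 values from 3.48 to 10.05. The collagen-binding proteoglycans *Lum* and *Dcn* fell by 7.45 (SE 0.70) and 5.92 (SE 1.03). *Fn1*, fibronectin, did not pass (-0.21, SE 0.41, adjusted p = 0.69), and *Acta2*, the actin of contractile cells, fell by 0.62 (SE 0.11, adjusted p = 0.00026). Of 17 meningeal genes 7 fell and none rose, with a median difference of -1.91; the list holds *Lum* and *Dcn* too. The retinoic acid enzyme *Aldh1a2* fell by 3.85 (SE 0.77, adjusted p = 0.00077). The mean level of the meningeal list was 6.55 to 8.74 over the day 1 arrays and 4.83 to 7.09 over the day 3 arrays, which overlap, and its part in the collagen result was not tested. Without day 1 replicates 1 and 4, 11 fibroblast genes and 3 meningeal genes fell.

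Proteases and growth factors went both ways. Of 23 proteases and inhibitors 4 rose and 8 fell, beside 17.1% and 18.3% of all genes, with a median difference of -0.10. Without day 3 replicate 2, or without day 1 replicates 1 and 4, 2 rose. *Mmp3*, stromelysin, read 3.55, 4.93, 2.29 and 4.18 and then 8.43, 9.47, 9.67 and 7.43, and it rose by 5.02 (SE 0.43, adjusted p = 1.0e-07). *Mmp12*, the elastase of macrophages, read 9.79, 8.50, 8.97 and 10.18 and then 3.20, 5.02, 5.19 and 6.15, and it fell by 4.47 (SE 0.73, adjusted p = 0.00013). The gelatinase *Mmp2* fell by 5.13 (SE 0.40, adjusted p = 3.0e-08), in 1 of its 2 probe sets, and the inhibitor *Timp1* stood above 12 on all arrays and did not pass (0.67, SE 0.37, adjusted p = 0.14). Of 35 growth factors 9 rose (5 without day 1 replicates 1 and 4) and 9 fell, beside the same shares of all genes. Their median difference was -0.02. *Igf1*, a survival factor that microglia and macrophages secrete, read 12.81, 12.53, 12.60 and 12.91 on day 1 and 7.66, 6.49, 5.42 and 3.98 on day 3, and it fell by 6.83 (SE 0.52, adjusted p = 2.8e-08). The day 3 values were also all below the sham mean of 10.15 ± 0.37 (SD, n = 4). *Bmp6* fell by 3.42 (SE 0.80) with overlapping groups, and not in the fit of the 8 arrays (adjusted p = 0.071), while *Bmp2* read 3.41, 3.58, 2.43 and 2.96 and then 5.34, 7.85, 7.98 and 5.88, and rose by 3.67 (SE 0.41, adjusted p = 2.0e-06). *Hbegf*, a ligand of the EGF receptor, *Fst*, which binds activins, and *Bdnf*, a neurotrophin, rose by 2.83 (SE 0.29), 3.19 (SE 0.35) and 2.38 (SE 0.31). These 3 were chosen after their values were seen. *Inhba*, an activin subunit, rose by 1.22 (SE 0.43, adjusted p = 0.036), a call that was lost without day 1 replicate 1, 3 or 4 and without day 3 replicate 1, 2 or 3 (1.01 to 1.30, adjusted p = 0.050 to 0.12).

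Astrocyte genes rose in part. Of 20 identity genes 8 rose and 1 fell, beside 17.1% and 18.3% of all genes, with a median difference of 0.69. *Agt*, angiotensinogen, read 5.31, 7.71, 7.43 and 4.45 and then 9.91, 10.12, 10.31 and 9.95, with day 1 replicates 1 and 4 the lowest, and it rose by 3.85 (SE 0.60, adjusted p = 7.9e-05). *Ntsr2*, a neurotensin receptor, and *Aqp4*, the water channel of the endfeet, rose by 3.30 (SE 0.67) and 1.26 (SE 0.35). Without day 1 replicate 4 alone 5 rose, without replicate 1 alone 3 fell, and in the fit of the 8 arrays 5 rose. Without that pair of arrays 2 of the 20 rose and 3 fell, and *Aqp4* (0.47, adjusted p = 0.35) and the glutamate transporter *Slc1a2* (1.11, adjusted p = 0.081) did not pass. *Aqp4* did not pass in the fit of the 8 arrays either (adjusted p = 0.077). *Aldh1l1*, a folate enzyme that marks astrocytes, did not pass (0.67, SE 0.38, adjusted p = 0.15). Of 17 reactive astrocyte genes 7 rose and 2 fell, with a median difference of 0.61, led by *Serpina3n* and *Lcn2*. *Gfap*, the filament that defines these cells, read 14.13, 14.44, 14.41 and 13.76 and 14.33, 14.39, 14.45 and 14.49, and did not pass (0.23, SE 0.14, adjusted p = 0.18). *Vim*, another filament that macrophages and fibroblasts also make, fell by 0.98 (SE 0.17, adjusted p = 0.00025).

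Myelin genes depended on the day 1 arrays used. Of 19 myelin genes 5 rose and 1 fell, beside 17.1% and 18.3% of all genes, with a median difference of 0.50. Without day 1 replicates 1 and 4 none rose and 1 fell. Rises were 2 without day 1 replicate 4, 9 and 10 without day 1 replicate 2 or 3, 13 without both of these, and 3 in the fit of the 8 arrays. *Mbp*, the basic protein of myelin, rose by 0.24 (SE 0.06, adjusted p = 0.0043), a call that the mean of its 3 probe sets did not keep (adjusted p = 0.13). *Mog*, a surface protein of myelin, did not pass (0.57, SE 0.27, adjusted p = 0.11) but passed without day 1 replicate 2 or 3 (0.75 and 0.77, adjusted p = 0.044 for both), and *Aspa*, which splits N-acetylaspartate, fell by 1.35 (SE 0.19, adjusted p = 3.4e-05). Of 10 precursor genes 4 fell and none rose, with a median difference of -0.50, led by *Pdgfra* (2.31, SE 0.35), which fibroblasts share, and *Cspg4* (1.29, SE 0.29). *Olig2*, the transcription factor of the lineage, did not pass (0.29, SE 0.18, adjusted p = 0.20). Of 20 endothelial and barrier genes 3 rose and 5 fell, beside 17.1% and 18.3% of all genes. The median difference was -0.07, and 3 fell in the fit of the 8 arrays. *Ocln*, a tight junction protein, read 8.61, 8.77, 8.82 and 9.07 and then 6.48, 4.59, 5.71 and 6.15, and fell by 3.09 (SE 0.28, adjusted p = 2.0e-07), and *Tie1*, a receptor of vessel cells, fell by 3.20 (SE 0.50, adjusted p = 7.5e-05). *Flt1*, a VEGF receptor, and *Mfsd2a*, the lipid transporter of the barrier, went up, by 2.87 (SE 0.28) and 2.23 (SE 0.21). *Cldn5*, which seals the junctions, fell by 0.75 (SE 0.23), a call lost without day 1 replicate 4 (-0.67, adjusted p = 0.058), without day 3 replicate 2 or 3 (adjusted p = 0.062 and 0.082) and in the fit of the 8 arrays (adjusted p = 0.12). *Pecam1*, an adhesion protein of endothelium, did not pass (0.37, SE 0.18, adjusted p = 0.11) but passed without day 1 replicate 2 (0.48, adjusted p = 0.049). Of 17 endothelial activation genes 2 rose and 5 fell, beside the same shares of all genes, with a median difference of -0.20. Falls were 2 without day 1 replicate 1 or 4 or day 3 replicate 3, 3 without day 3 replicate 2, in the fit of the 8 arrays and after quantile normalization or median centring, and 1 without both day 1 replicates 1 and 4. In this list the peptide *Apln* rose by 2.38 (SE 0.42, adjusted p = 0.00023).

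Genes known from regenerating axons stood higher on day 3. Of 16 measured, 11 rose and none fell, with a median difference of 1.08, and 9 rose without day 1 replicates 1 and 4. The neuropeptide *Gal* read 9.68, 8.08, 7.82 and 8.39 and then 11.08, 11.57, 11.58 and 10.72, and it rose by 2.75 (SE 0.60, adjusted p = 0.0017). The peptides *Adcyap1* and *Vip* rose by 2.73 (SE 0.38) and 2.63 (SE 0.45). *Gap43*, a protein of growth cones that was singled out after its values were seen, rose by 0.96 (SE 0.26, adjusted p = 0.0073), but not without that pair of arrays (adjusted p = 0.092). The mean level of this list was 7.35 to 7.87 in sham cord, 8.00 to 8.40 on day 1, 9.05 to 9.74 on day 3 and 7.69 to 8.44 at 1 week, and day 3 was the one group that did not overlap with any of the other 3.

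Of 24 genes of cell death 5 rose and 9 fell (5 without day 1 replicates 1 and 4), beside 17.1% and 18.3% of all genes. Their median difference was -0.16. *Bcl2l11*, a killer of the Bcl-2 family, fell by 4.37 (SE 0.50, adjusted p = 2.7e-06) in 1 of its 3 probe sets, and *Casp1*, the caspase of inflammasomes, fell by 2.65 (SE 0.50, adjusted p = 0.00047). Lymphocytes left little signal. Of 17 T, B and natural killer cell genes 3 had a mean of at least 5 on either day, and 3 fell, *Cd8a*, *Cd8b* and *Cd4*. Falls were 7 without day 1 replicate 2, 5 without day 3 replicate 1 and 1 without day 1 replicates 1 and 4. *Cd8a*, a co-receptor of T cells, read 9.11, 8.49, 9.03 and 9.02 and then 2.76, 4.15, 6.20 and 2.90, and fell by 4.91 (SE 0.70, adjusted p = 3.4e-05). *Cd3e*, a defining chain of the T cell receptor complex, did not pass (-0.26, SE 0.18, adjusted p = 0.23), and *Cd3g* and *Cd3d* were near background. Rat macrophages are known to carry CD4 as well. *Cd8b* fell by 2.48 (SE 0.80), but not without day 1 replicate 1 or 4 (adjusted p = 0.062 and 0.064), and *Cd4* fell by 1.34 (SE 0.40, adjusted p = 0.015), but not without day 1 replicates 1 and 4 (adjusted p = 0.11). The counts of the remaining cell types stand beside 17.1% of all genes that rose and 18.3% that fell. There were 2 rises and 1 fall among 10 Schwann cell genes, 2 falls among 5 dendritic cell genes, 2 falls among 7 red cell genes, 1 of each among 15 skeletal muscle genes, and none among 9 mast cell genes or 6 ependymal genes. In mast cell genes 3 fell without day 1 replicate 2 or day 3 replicate 1, and in ependymal genes 3 fell without day 3 replicate 4. No mast cell gene and 2 of the 6 ependymal genes had a mean of at least 5 on either day. The mast cell differences lay between -0.09 and -0.03.

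**Figure D4:**
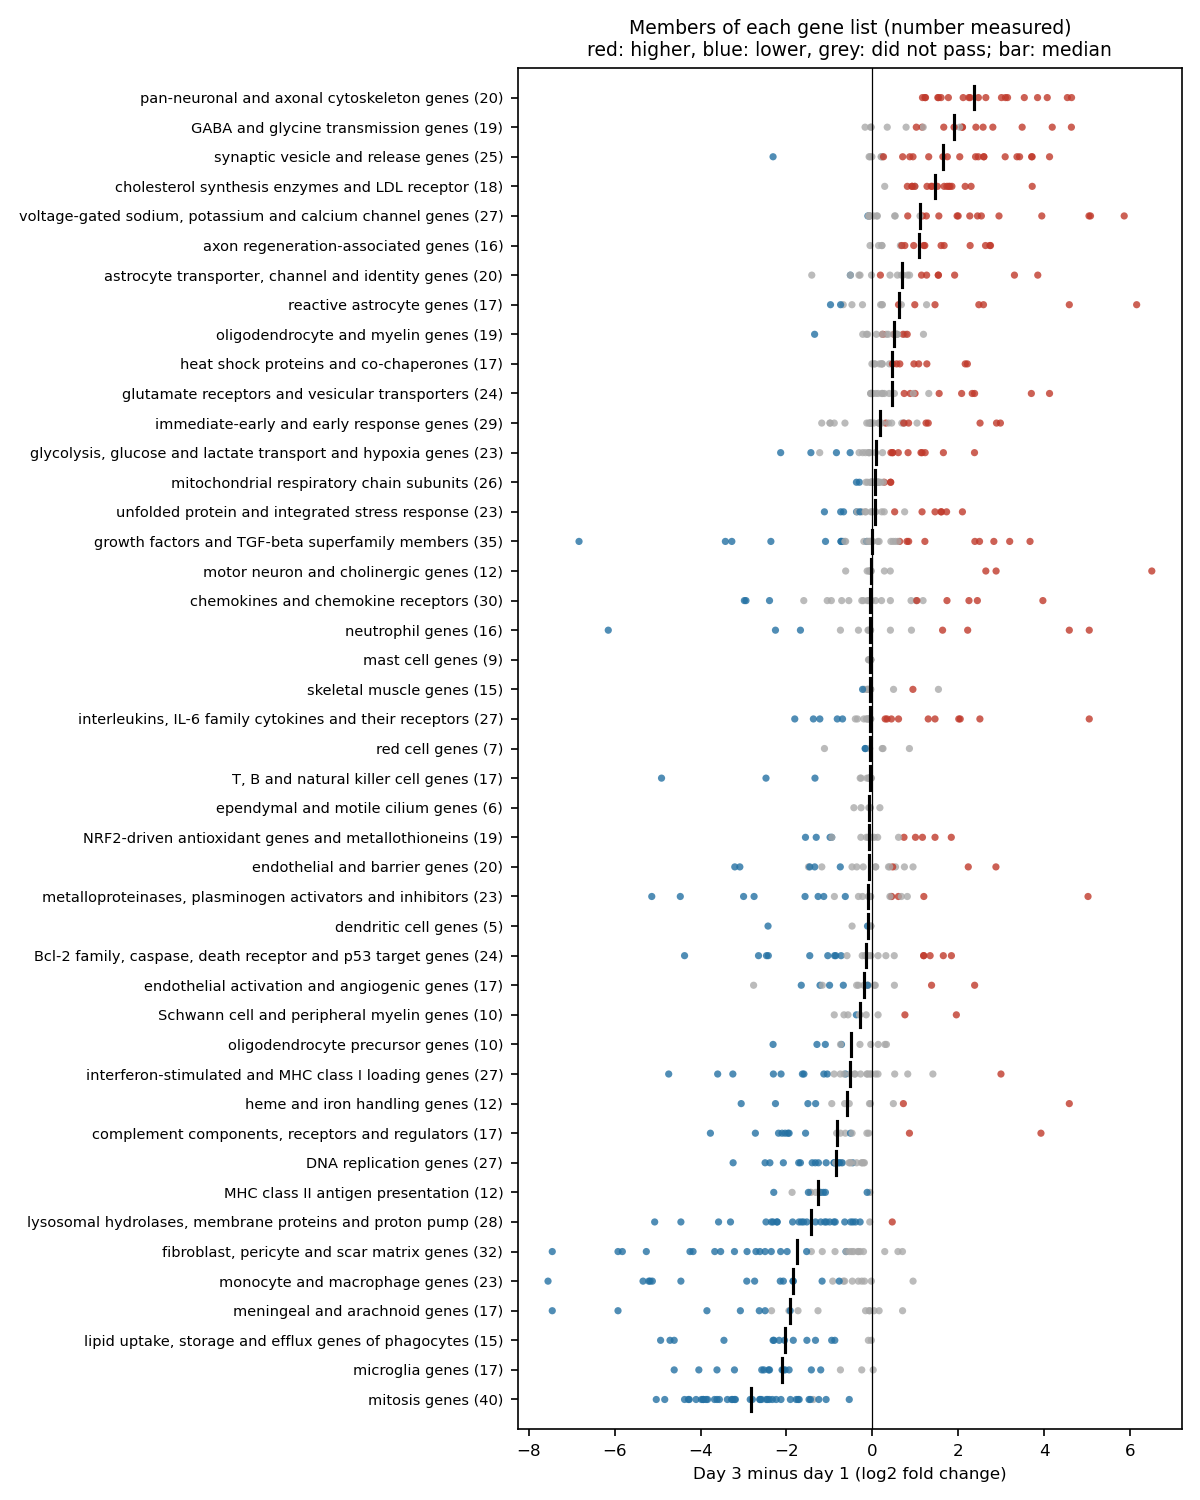
Day 3 minus day 1 difference (x axis, log2 fold change) of each measured member of 45 gene lists (y axis, number measured in brackets), ordered by the median (black bar). Red members rose, blue members fell and grey members had an adjusted p of 0.05 or more. The medians run from -2.82 for mitosis genes to 2.37 for pan-neuronal and axonal cytoskeleton genes.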

How the data were processed

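Each of the 24 cords, from as many rats, was hybridised to its own Affymetrix rat expression array. The authors deposited log2 expression values, which they made from the scans by GCRMA background correction, quantile normalization and summarization with the affy package (version 1.12.2 in the submitters' processing notes), by the methods separately for each time point. That step makes arrays of 1 day alike and can shift whole days against each other.

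The deposited log2 values were used as they stand. Of 31099 probe sets, 57 were controls, 20826 had 1 gene symbol in the platform annotation, 436 had several and 9837 had none. Probe sets with several or no symbols were not used. Of the 20826, 20758 were matched to RefSeq by gene ID. A gene was represented by its probe set of highest mean over all arrays, which gave 14217 genes. limma 3.58.1 (R 4.3.3) was fitted with 1 level for each of the 6 groups, which leaves 18 residual degrees of freedom, and the contrast day 3 minus day 1 was tested with eBayes, with Benjamini-Hochberg adjustment over all probe sets with 1 symbol. Nothing in the labels says more of the rats than that each array is 1 rat, and the number of arrays limits the precision. The median SE of a difference was 0.14. The fit was tested on simulated data of the same size.

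The 45 lists (23 of cell types, 22 of processes, 971 genes of which 127 were not analysed here) and the genes compared were chosen with earlier results of these data known, and no list was tested as a set. Named genes are the 10 of largest difference in each direction with no overlap between the groups, at most 4 of each list (the largest differences among members that passed), fixed marker genes, and for genes that did not pass mostly the member of a list with the highest mean value. Some further list members are named beside these and were not followed through the alternatives below. For the genes that were followed, no other probe set passed in the opposite direction. Promoters are RefSeq sequences of GRCr8, and Python 3.11.15 was used for tables and figures. Alternatives were another set of arrays in the fit, moderated trend, an ordinary t-test without moderation, quantile normalization of all arrays, and median centring. Further ones were a filter on dim probe sets (mean under 5 on both days), the replicate number as a block, and averaging the probe sets of a gene. The last were each array left out, and a difference of at least 1.5. After the data were seen, day 1 replicates 1 and 4, and day 1 replicates 2 and 3, were also left out together.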

Additional observations from a re-analysis of the deposited data

Results flagged for a closer look

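In 22 of 356 groups of 4 arrays, over 173 of the genes named above, 1 array stood far from the other 3. Its gap, as a share of the group's whole range, was above the critical value of Dixon's test. Chance alone gives such a gap in about 1 of 20 groups, and no cause was tested.

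On day 1, replicate 1 stood above the other 3 arrays in *Cln3* (7.42, the others 6.0 to 6.21), *Cxcl2* (4.23, the others 2.09 to 2.31), *Gpr34* (10.35, the others 10.07 to 10.11), *Il11* (3.59, the others 2.29 to 2.49) and *Il6* (4.87, the others 2.47 to 2.69). On day 1, replicate 2 stood below the other 3 arrays in *Cd8a* (8.49, the others 9.02 to 9.11). On day 1, replicate 3 stood below the other 3 arrays in *Col3a1* (10.55, the others 12.70 to 12.99). On day 1, replicate 4 stood above the other 3 arrays in *Fst* (2.55, the others 1.87 to 1.88) and *Hp* (7.27, the others 4.59 to 4.97). On day 3, replicate 1 stood above the other 3 arrays in *Asgr2* (3.27, the others 2.30 to 2.41), *Chat* (3.72, the others 2.37 to 2.56), *Cxcl12* (9.43, the others 4.34 to 4.54) and *Slc12a5* (10.98, the others 10.42 to 10.47) and below the other 3 arrays in *Cd74* (9.25, the others 10.03 to 10.15). On day 3, replicate 2 stood above the other 3 arrays in *Cxcl2* (8.58, the others 5.76 to 6.21). On day 3, replicate 3 stood above the other 3 arrays in *Cxcl10* (3.55, the others 1.96 to 2.05) and *Syt1* (6.47, the others 5.37 to 5.42). On day 3, replicate 4 stood above the other 3 arrays in *Birc5* (6.07, the others 3.05 to 3.23) and *Cspg4* (5.91, the others 5.17 to 5.24). In sham cord, replicate 1 stood below the other 3 arrays in *C3* (10.33, the others 11.19 to 11.37). In sham cord, replicate 3 stood above the other 3 arrays in *Nefh* (14.20, the others 13.24 to 13.36) and *Scn1a* (11.58, the others 11.28 to 11.32).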

How the results depend on the processing

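Beside the 2437 genes that rose and the 2598 that fell, 1622 rose and 1523 fell with day 1 replicates 1 and 4 left out together, and with a threshold of 1.5 instead of 1 on the difference 540 rose and 710 fell. A higher threshold by its construction leaves fewer calls, and for the pair of arrays the cause was not tested. Leaving out 1 array at a time gave 2099 to 2573 rises and 2072 to 3633 falls, and 856 to 1061 and 1012 to 1233 of at least 1. The highest count of falls came without day 1 replicate 2. The other alternatives gave 1856 to 2572 rises and 1936 to 3214 falls, all within 1.5 times of the counts above. Rises made up 48.4% of the calls, and 40.9% to 53.8% over all alternatives.

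Over the 173 named genes followed through the alternatives, none changed direction. Of the 147 of them that passed, 115 passed under every alternative they entered and 32 lost the call under at least 1. Most genes entered 18 alternatives. Among the 115, *Mcm3* and *Mfsd2a* entered 17, since the filter on dim probe sets left them out. Of those that did not pass, 10 gained it under at least 1. Among the changes not given above are the gain of *Timp1* and *Hmox1* in the fit of the 8 arrays (adjusted p = 0.017 and 0.030), of *Cd74* in that fit (0.041) and without dim probe sets (0.047), the losses of *Cln3* and *Hsp90b1* in that fit (0.071 and 0.081), and those of *Gria2*, *Slc5a7* and *Fdft1* without day 1 replicates 1 and 4 (0.16, 0.053 and 0.075) of *Calr*, *Syt1* and *Mbp* also without that pair (0.11, 0.14 and 0.076), of *Cxcl1* without day 1 replicates 2 and 3 (0.14), and the gains of *Gfap*, *Aldh1l1* and *Olig2* without those 2 arrays (0.023, 0.022 and 0.023). With the replicate number as a block, 2391 genes rose and 2569 fell, and 949 and 1123 of at least 1. The deviations of same-numbered arrays of both days had correlations of -0.08 to 0.01, and those of differently numbered arrays -0.09 to 0.19. The numbers thus showed no sign of pairing. With 4 arrays a day these correlations cannot decide whether the numbers mark shared handling. The medians of 25 of the 45 lists moved by more than the spread between arrays under at least 1 alternative. Low levels limit what can be seen: of 5255 genes with both means under 5, 640 passed.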

Other observations

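At 1 week, 3 of the genes that rose on day 3 were near background. *Serpina3n* was at 1.86 ± 0.01 (SD, n = 4), which is 6.23 below day 3 (SE 0.28, adjusted p = 1.5e-11). *Il1r2* was at 2.00 ± 0.02 (SD, n = 4) and *Mmp3* at 2.14 ± 0.02 (SD, n = 4). Their day 3 arrays were thus the only ones of sham, day 1, day 3 and 1 week with a signal on every array. *Gpx2* was at 3.69 ± 1.67 (SD, n = 4), with 2 arrays near background and 2 above it.

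Some macrophage and matrix genes that fell on day 3 read higher at 1 week. *Cd68* was at 11.70 ± 1.15 (SD, n = 4), *Trem2* at 11.41 ± 1.02 (SD, n = 4) and *Col1a1* at 12.81 ± 1.25 (SD, n = 4), which is 4.22 (SE 0.64, adjusted p = 4.8e-05), 4.37 (SE 0.36, adjusted p = 3.6e-08) and 5.83 (SE 0.75, adjusted p = 7.9e-06) above day 3 in limma's test. The mean level of the whole macrophage list was 8.43 to 10.68 at 1 week and 7.77 to 8.44 on day 3, which overlap. *Igf1* was at 13.19 ± 0.87 (SD, n = 4), 7.31 above day 3 (SE 0.52, adjusted p = 5.1e-09). *Bub1* was at 4.77 ± 1.81 (SD, n = 4) and did not pass against day 3 (1.11, SE 0.52, adjusted p = 0.13). These comparisons share the day 3 arrays with the comparison above. Among the 10216 probe sets with several or no symbols, 909 had an unadjusted p under 0.001 between day 3 and day 1.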
